A study of Caenorhabditis elegans with 6 samples.

Results

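A group of 52 *Caenorhabditis elegans* protein-coding genes, which the deposited table lists under a cosmid or clone name such as *F46F2.3* and not under a gene symbol, was strongly lower after antimycin A. They were selected on the same contrast that is described here: a mean of at least 10 TPM (transcript abundance scaled to gene length and library total) in the 3 control libraries, and a ratio of antimycin A to control of at most 0.4 in each of the 3 same-numbered pairs. Of 46904 listed genes, 20191 were protein-coding, 9968 of those had a clone name, and 1922 of these reached 10 TPM in control, so that the 52 genes were 2.71% of the clone-named genes at that level. The genes *F44E5.4*, *F44E5.5* and *T24B8.5* were left out by name, and none of them met the thresholds. Because the values chose the genes, the fold changes below are a description and carry no test. The members were not all without a name: current annotation tables gave a symbol to 14 of them, the deposited table gave a description to 9, and 32 had neither.

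The libraries hold RNA bound to tagged ribosomes, purified by translating ribosome affinity purification (TRAP). All animals were young adults of the strain CLP1481, grown at 20 °C, and both groups carried the extrachromosomal array twnEx675. It holds Ptbh-1::rpl-22::3xHA, for the tagged ribosomal protein, and the marker Pgcy-8::gfp. Controls spent 6 h on a bacterial lawn with the vehicle ethanol (EtOH), and treated animals the same time on one with antimycin A at 4.5 µM. Each of 3 independent experiments gave 1 library per group. The promoter of *tbh-1*, which encodes tyramine beta-hydroxylase, drove the tagged ribosomal protein, and an extrachromosomal array can be lost from some cells. Markers of several other tissues were present in the purified RNA, and RNA of tagged ribosomes and RNA carried through the purification cannot be told apart here. In such bulk samples, fewer cells of a type and less RNA per cell cannot be told apart. All 6 libraries are of purified RNA, so less transcript and less binding to ribosomes cannot be told apart either.

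Antimycin A blocks complex III of the mitochondrial respiratory chain, which passes electrons from ubiquinol to cytochrome c and pumps the protons that ATP synthase uses. Worms answer such a block with changes in mitochondrial stress genes, metabolic enzymes and genes of defence against bacteria, many of them in the intestine, which is also the organ of digestion and fat storage. Clone-named genes are those that no one had named by function when an annotation was made, and many encode small or nematode-specific proteins.

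TPM are corrected for gene length and give a share of each library, so levels of different genes can be set side by side, but the depth behind a value is unknown and no counting interval can be given. The libraries listed 9951 to 11608 genes at 1 TPM or more. Genes annotated as rRNA took 8.65%, 12.9% and 9.49% of TPM in the 3 EtOH libraries, in replicate order, and 6.10%, 7.99% and 19.03% in the antimycin A libraries, so the third antimycin A library had the most. Over 11099 tested genes, limma on log2(TPM + 1) called 718 lower (6.47%) and 1579 higher (14.2%) with antimycin A at a Benjamini-Hochberg adjusted p below 0.05. With the libraries scaled by median of ratios these counts were 1217 and 1359, with quantile normalization 1398 and 1423, and with the replicate number as a block 1442 (13.0%) and 3282 (29.6%). All 52 chosen genes were in the fit and were called lower. All 52 also had every antimycin A library below every EtOH library, against 11.6% of tested genes. They all had a q-value below 0.05 in the authors' deposited table, which called 1379 genes lower. That is 2.94% of all 46904 listed genes, of which 30571 to 32631 were at 0 in each library, so the base differs from that of limma. The choice of the genes fixed the counts for the 52.

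Together the 52 genes made up 1.65%, 1.88% and 1.82% of TPM in the EtOH libraries. They made up 0.451%, 0.418% and 0.388% in the antimycin A libraries. Of protein-coding TPM alone, which leaves rRNA out, they took 1.87%, 2.23% and 2.06% in EtOH and 0.493%, 0.467% and 0.510% in antimycin A. The rule asks for a ratio of at most 0.4 in each pair, so it fixed a lower share in all 3 experiments. The protein-coding base had the same direction and adds no test. The median gene stood at 71.6 TPM with EtOH and 15.2 TPM with antimycin A. The median ratio of group means was 0.216, against 1.08 for the other 1870 clone-named genes at 10 TPM or more. On the log2(TPM + 1) scale the median difference was -2.12, against 0.21 over all tested genes. Scaling by median of ratios moved these medians to -2.42 and -0.04.

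**Figure D1:**
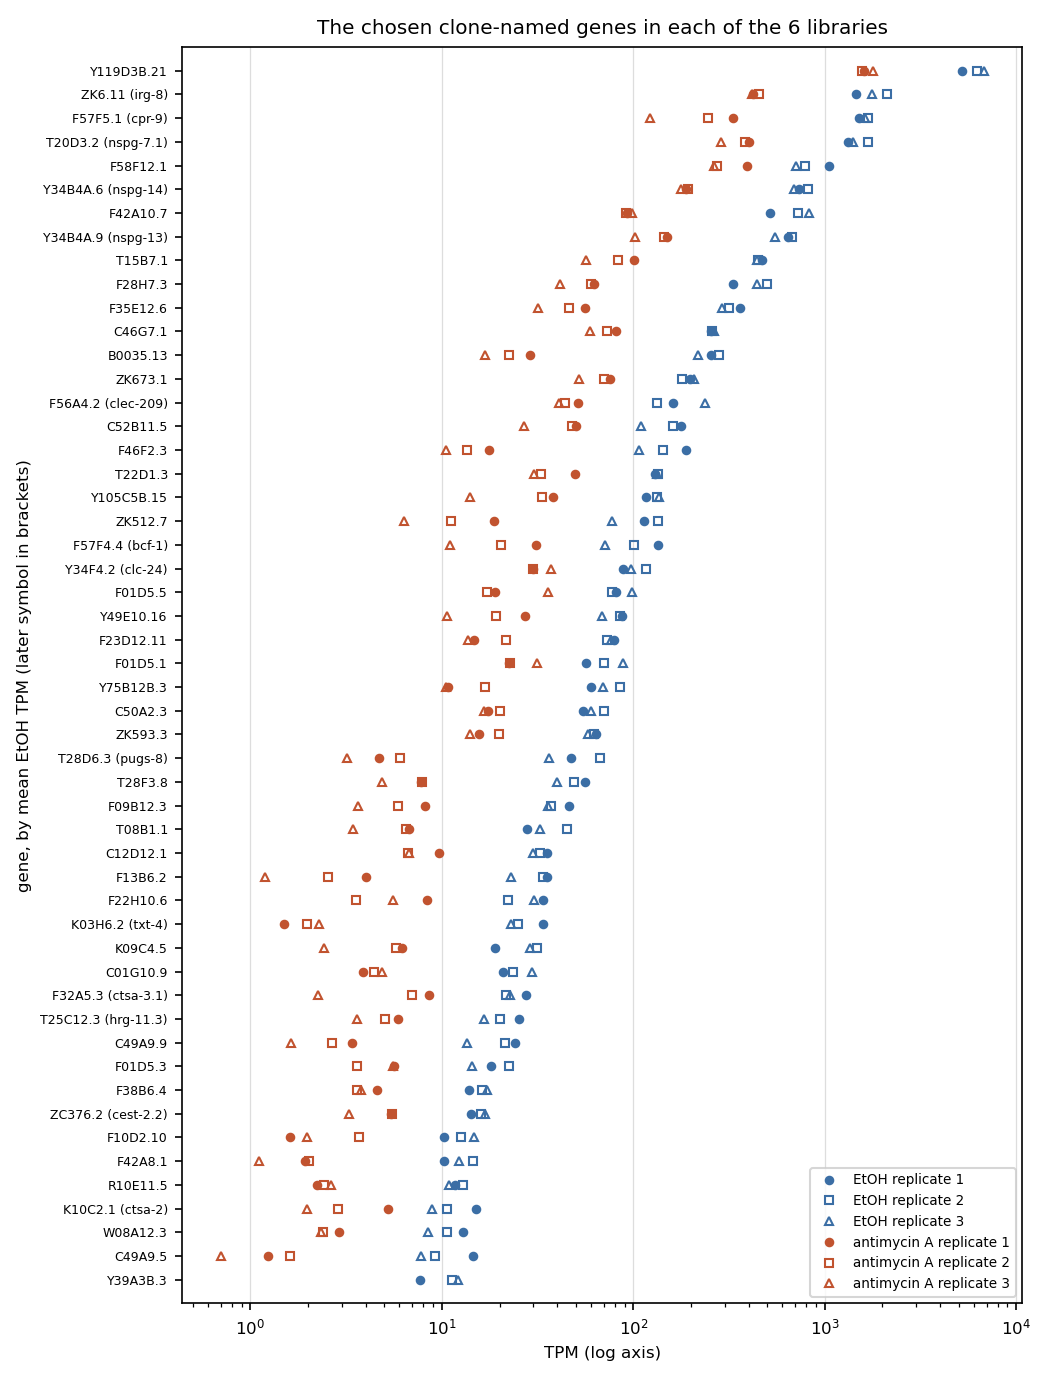
TPM (log axis) of each of the 52 chosen genes in the 3 EtOH (blue) and 3 antimycin A (orange) libraries, 1 row per gene in order of mean EtOH level; filled circles, open squares and triangles are replicates 1, 2 and 3. In each row all orange points lie left of all blue ones, and *Y39A3B.3* at the bottom has no orange points because it was listed at 0 in those libraries.

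The levels were spread over more than 2 orders of magnitude. In EtOH 4 of the genes had means of 1000 TPM or more, 22 reached 100 TPM, 19 lay between 20 and 100 TPM, and 11 lay under 20 TPM. *Y119D3B.21*, a gene of 343 bases at chrIII:1214951-1215293 (WBcel235, plus strand), alone gave 34.1% of the group's TPM in EtOH. It read 5220, 6233 and 6812 TPM with EtOH and 1602, 1571 and 1776 TPM with antimycin A. The treated libraries lay close together, far below the lowest control, at a ratio of means of 0.271. Without this gene the group took 1.13% to 1.26% of TPM in the EtOH libraries and 0.210% to 0.291% in the antimycin A libraries. The rule fixed the direction here too.

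The next most abundant gene was *ZK6.11* (chrV:415713-417708, minus strand), whose current symbol *irg-8* stands for infection response gene. It read 1458, 2105 and 1771 TPM with EtOH and 420.3, 452 and 415 TPM with antimycin A. The control libraries differed among themselves more than the treated ones did, and the groups were well apart (ratio of means 0.241). *F57F5.1* (chrV:12003028-12004600), now *cpr-9*, belongs to the cathepsin B-like cysteine proteases. It read 1512, 1682 and 1623 TPM with EtOH and 330.1, 247 and 122.2 TPM with antimycin A. Here the controls were tight and the treated libraries spread, the third being the lowest, with pair ratios of 0.218, 0.147 and 0.0753. *T20D3.2* (chrIV:9328973-9330855), now *nspg-7.1*, is a member of a nematode-specific peptide family. It read 1321, 1691 and 1406 TPM with EtOH and 401, 385 and 286 TPM with antimycin A. Together these 4 genes held 61.3% of the group's TPM in EtOH.

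**Figure D2:**
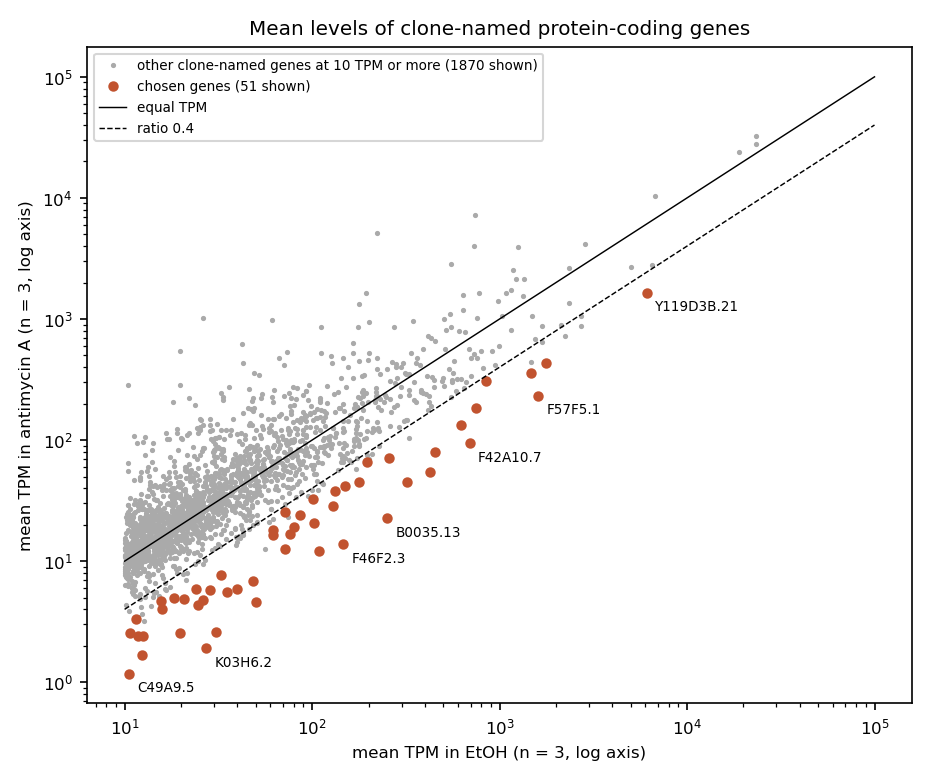
Mean TPM in antimycin A against mean TPM in EtOH (n = 3 each, both axes log) for clone-named protein-coding genes at 10 TPM or more in EtOH; orange points are the chosen genes, grey points the other genes, the solid line marks equal TPM and the dashed line a ratio of 0.4. The chosen genes lie under the dashed line from 10.5 to 6088 TPM in EtOH, and *Y39A3B.3*, listed at 0 in antimycin A, is not drawn.

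Ratios of group means were at or under 0.1 for 5 of the genes, between 0.1 and 0.2 for 16, between 0.2 and 0.3 for 25 and between 0.3 and 0.4 for 5, and 1 gene was listed at 0. That gene, *Y39A3B.3* (chrIII:1985109-1987466), read 7.67, 11.2 and 12.2 TPM with EtOH and stood at 0 in every treated library. A 0 in such a table can be a failed estimate, so no fold is given for it. Among the others the lowest ratio of means, 0.0704, belonged to *K03H6.2* (chrIV:1510546-1515251, now *txt-4*). It read 33.7, 25.1 and 22.9 TPM in EtOH and 1.497, 1.97 and 2.29 TPM with antimycin A. Its pair ratios ran from 0.0444 in the first pair to 0.1001 in the third, and the third pair, which gave the smallest ratio in 36 of the genes, here gave the largest.

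*F13B6.2* (chrIV:7458836-7460424) read 35.4, 33.8 and 23.0 TPM with EtOH and 4.01, 2.54 and 1.19 TPM with antimycin A. *B0035.13* (chrIV:11304721-11306762) read 256, 280 and 217 TPM with EtOH and 29.0, 22.5 and 16.7 TPM with antimycin A. Both genes were lowest in the third library of each group, with ratios of means of 0.0840 and 0.0906. *T28D6.3* (chrIII:11366618-11368435, now *pugs-8*) read 47.3, 66.9 and 36.4 TPM with EtOH and 4.71, 6.01 and 3.19 TPM with antimycin A. The second library was the highest in both groups, and the pair ratios stayed between 0.0877 and 0.0996. *F46F2.3* (chrX:15259579-15260290) read 189, 143 and 107 TPM with EtOH and 17.7, 13.6 and 10.4 TPM with antimycin A. Its level differed between experiments in both groups, while its pair ratios were nearly equal at 0.0936, 0.0949 and 0.0979.

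The thresholds cut through a continuous range. Just inside the ratio threshold, *F01D5.1* had a largest pair ratio of 0.396, *ZK673.1* of 0.393 and *F01D5.3* of 0.387. Just outside were *F10A3.4* at 0.402, *F42A10.6* at 0.404 and *C37A2.7* at 0.407. At the level threshold *Y39A3B.3* (10.4 TPM), *C49A9.5* (10.5 TPM) and *W08A12.3* (10.67 TPM) lay just inside, and *Y51H4A.24* (9.97 TPM), *Y18D10A.23* (9.85 TPM) and *T24D3.2* (9.66 TPM) just outside. The group would hold 32 genes at a ratio of at most 0.3 and 106 at 0.5. It would hold 97 genes, all 52 among them, if the libraries were first scaled by median of ratios, and 58 genes, 47 of the 52 among them, with TPM rescaled to protein-coding genes. With the ratio required between all 9 pairings of libraries it would keep 44.

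The size of the drop differed between experiments. The median pair ratio of the chosen genes was 0.234 in the first pair, 0.210 in the second and 0.168 in the third. Other clone-named genes at 10 TPM or more had medians of 1.07, 1.19 and 1.05 in the same pairs. The smallest ratio came from the third pair for 36 of the genes, from the second for 11 and from the first for 4, leaving out *Y39A3B.3*. It also came from the third pair for 941 of the 1870 other clone-named genes and for 80 of the 105 genes with other names. The third antimycin A library was the lowest of its group for 38 genes, which is 74.5% of those not at 0, and it was the lowest for 65.0% of all clone-named genes at that level. Its rRNA share was the highest of the 6 libraries, and the part of rRNA in these orders was not tested.

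**Figure D3:**
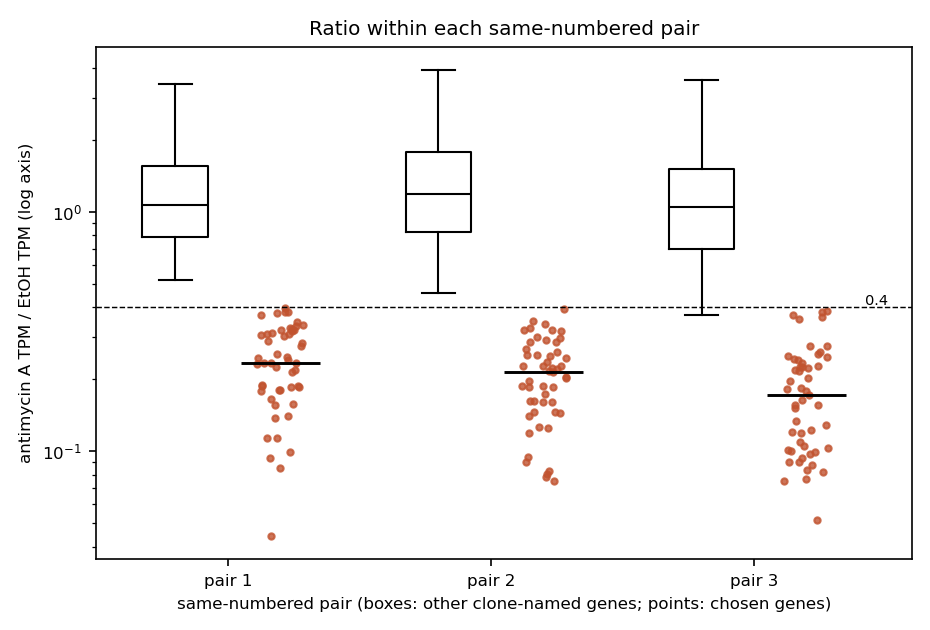
Ratio of antimycin A to EtOH TPM (log axis) in each same-numbered pair; boxes show the median, quartiles and 5th to 95th percentiles of the other clone-named genes at 10 TPM or more, points the 51 chosen genes with a ratio above 0, thick bars their median, and the dashed line the threshold of 0.4. The points move down from the first pair to the third, while the boxes stay near a ratio of 1. Medians of the genes with other names that met both thresholds, not drawn, moved down likewise.

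In 8 of the genes, 15.69% of those not at 0, the third antimycin A library was instead the highest of its group. The share was nearly the same, 16.04%, among the other clone-named genes at 10 TPM or more, so it did not set the chosen genes apart. The 8 genes were *Y119D3B.21*, *F42A10.7*, *Y34F4.2*, *F01D5.5*, *F01D5.1*, *K03H6.2*, *C01G10.9* and *R10E11.5*. *F01D5.5* read 80.8, 77.6 and 98.8 TPM with EtOH and 18.9, 17.1 and 36.0 TPM with antimycin A. The last treated library stood apart from the other two and still lay far below the controls. *F42A10.7* (chrIII:6177916-6178686) read 517, 729 and 829 TPM with EtOH and 93.2, 91.9 and 98.6 TPM with antimycin A. Its treated libraries were nearly level while its controls differed, which gave pair ratios of 0.180, 0.126 and 0.119.

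Among the genes that now carry a symbol, the nematode-specific peptide family nspg had the most members. These were *T20D3.2* above and the neighbours *Y34B4A.6* (*nspg-14*) and *Y34B4A.9* (*nspg-13*). *Y34B4A.6* read 738, 814 and 689.7 TPM with EtOH and 188, 193 and 177 TPM with antimycin A. *Y34B4A.9* read 645, 673 and 552 TPM with EtOH and 151, 145 and 102 TPM with antimycin A. Both held a steady drop, with pair ratios of 0.237 to 0.256 and 0.184 to 0.234. Of the 14 listed nspg genes, 9 reached 10 TPM in EtOH, and the ratio of means was under 1 in all 9, with a median of 0.414. The highest of them, *Y34B4A.5* at 0.755, lies next to *Y34B4A.9*.

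Protease families were divided. Of 7 *cpr* genes at 10 TPM or more, *cpr-9* and *cpr-5* met both thresholds. The cathepsin B-like genes *cpr-1* and *cpr-4* were higher with antimycin A, at ratios of means of 2.05 and 1.95. Of 6 genes of the serine carboxypeptidase family ctsa at that level, *F32A5.3* (*ctsa-3.1*) and *K10C2.1*, which is also described as a carboxypeptidase, were chosen. *F32A5.3* read 27.7, 21.7 and 22.6 TPM with EtOH and 8.54, 6.96 and 2.25 TPM with antimycin A. *K10C2.1* read 15.04, 10.66 and 8.85 TPM with EtOH and 5.22, 2.85 and 1.98 TPM with antimycin A. The most abundant gene of the family, *F41C3.5*, read 3046, 2885 and 2660.0 TPM with EtOH and 4648, 5500.3 and 2327 TPM with antimycin A. Its first and second treated libraries lay above all controls and the third below them, so the groups overlapped.

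Of the other current symbols, *F57F4.4* is *bcf-1*, and it read 135, 100.3 and 71.3 TPM with EtOH and 31.2, 20.3 and 11.1 TPM with antimycin A. Each group was highest in the first experiment and lowest in the third. *F56A4.2* (*clec-209*), a gene of the C-type lectins, which bind carbohydrates, read 162, 134 and 238 TPM with EtOH and 51.6, 43.8 and 40.8 TPM with antimycin A. The control of the third experiment was the highest of its group while the treated library of that experiment was the lowest. A gene already listed as *clec-209*, of the same span of 1257 bases and elsewhere on chromosome V, read 101.7, 132 and 234 TPM with EtOH and 51.0, 41.8 and 40.1 TPM with antimycin A, and missed the ratio threshold at 0.502 in the first pair. The values of these genes under 1 symbol are nearly equal in every library but the first EtOH library, where they read 162 and 101.7 TPM. Reads may be shared between them, so the level of each, and whether it meets the ratio threshold, is uncertain. Counting both, of 42 C-type lectin genes at 10 TPM or more, 10 met both thresholds, 26 had a ratio of means under 1 and 16 a ratio over 1. Genes under 10 TPM in EtOH are not counted. Among these *clec-4* went from 2.07 TPM to 27.1 TPM with antimycin A and *clec-60* from 3.50 TPM to 0.560 TPM. *Y34F4.2* (*clc-24*, of the claudin-like family) read 88.7, 116 and 97.2 TPM with EtOH and 29.9, 30.1 and 37.2 TPM with antimycin A.

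*T25C12.3* (*hrg-11.3*), from the haem-responsive genes, read 25.2, 20.1 and 16.7 TPM with EtOH and 5.93, 5.05 and 3.62 TPM with antimycin A. In the hrg group 3 of 8 genes at 10 TPM or more met both thresholds, and 3 had ratios over 1. Such counts leave out genes under 10 TPM in EtOH and above it in antimycin A. In this group they were *hrg-2* (0.516 TPM and 19.8 TPM), *R186.1* (3.95 TPM and 16.9 TPM) and *hrg-3* (8.28 TPM and 16.9 TPM). *ZC376.2* (*cest-2.2*), from the carboxylesterase family, read 14.3, 16.03 and 16.7 TPM with EtOH and 5.40, 5.48 and 3.29 TPM with antimycin A. The other 5 *cest* genes at 10 TPM or more all had ratios of means over 1. For *C17H12.4* (1.02) and *F55F3.2* (1.22) among them the groups overlapped. Of 5 *irg* genes at that level, *irg-8* and *irg-7* met both thresholds, and the ratio was under 1 in all 5. For *irg-4* (0.970) among them the groups overlapped. Left out of this count, and higher with antimycin A, were *irg-2* (1.12 TPM and 25.2 TPM) and *irg-1* (3.71 TPM and 17.3 TPM).

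*F58F12.1* (chrII:6383645-6384692) encodes the delta subunit of mitochondrial ATP synthase, part of the rotating central stalk. It read 1059, 787 and 708 TPM with EtOH and 393, 274 and 263 TPM with antimycin A. Each group was highest in the first experiment, and the pair ratios stayed at 0.371, 0.349 and 0.371, the highest ratio of means of the 52 genes. The other subunit genes were looked up by their description after this value was known, so they are given without a test. The table describes 13 subunit genes, 12 of them nuclear, and in 11 of the 13 every antimycin A library was below every EtOH library, as in 11.6% of all tested genes, at ratios of means from 0.354 (*atp-3*) to 0.737 (*ZC262.5*). The beta subunit gene *atp-2*, at a ratio of 0.365, was as low as *F58F12.1*, and *atp-3* also met both thresholds. The exceptions were *atp-6*, which is encoded in mitochondrial DNA, at 1.02, and *R05D3.6*, described as an epsilon subunit, at 1.15. *ZC262.5* has the same description. In the third EtOH library *R05D3.6* read 30.3 TPM and *ZC262.5* 164.8 TPM, while in every other library their values were nearly equal. Reads may be shared between them, so the ratio of each is uncertain. *mai-1*, an inhibitor protein of the enzyme, read 7.49, 5.15 and 3.22 TPM with EtOH and 40.7, 43.6 and 34.8 TPM with antimycin A, above all controls. The far more abundant second inhibitor gene, *mai-2*, read 1676, 1826 and 1961 TPM with EtOH and 2066, 1929 and 2519 TPM with antimycin A, with overlapping groups.

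The metabolic enzymes in the group included 2 of purine nucleotide synthesis. *F38B6.4* (chrX:6674869-6679848) encodes the trifunctional enzyme that carries out early steps of the ring's assembly. It read 13.8, 16.1 and 17.3 TPM with EtOH and 4.59, 3.596 and 3.79 TPM with antimycin A. *T22D1.3* (chrIV:6913536-6917110) encodes inosine monophosphate dehydrogenase, which opens the branch to guanine nucleotides. It read 130.2, 135 and 133 TPM with EtOH and 49.8, 33.0 and 30.2 TPM with antimycin A. Its controls were among the tightest of the group, with an SD of 2.17 TPM.

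The rest of the pathway was added after these values were seen and is likewise given without a test. *ppat-1*, the amidotransferase of the first committed step, read 30.6 TPM ± 3.72 (SD, n = 3) in EtOH and 6.92 TPM ± 3.40 in antimycin A. *paic-1*, listed under an older symbol in the deposited table, read 89.4 TPM ± 15.7 and 10.5 TPM ± 3.29. *adsl-1*, adenylosuccinate lyase, read 104.2 TPM ± 6.79 and 28.4 TPM ± 4.17. These genes met both thresholds. *pfas-1* met the one on ratios (0.266 for the means), but its EtOH mean of 7.42 TPM was under 10 TPM. *atic-1*, which closes the ring, stood at a ratio of means of 0.480 and *gmps-1*, GMP synthetase, at 0.614. The enzyme before the pathway, *prps-1*, was at 0.835 and the adenine branch enzyme *adss-1* at 1.25. The groups overlapped for *gmps-1*, *prps-1* and *adss-1*.

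**Figure D4:**
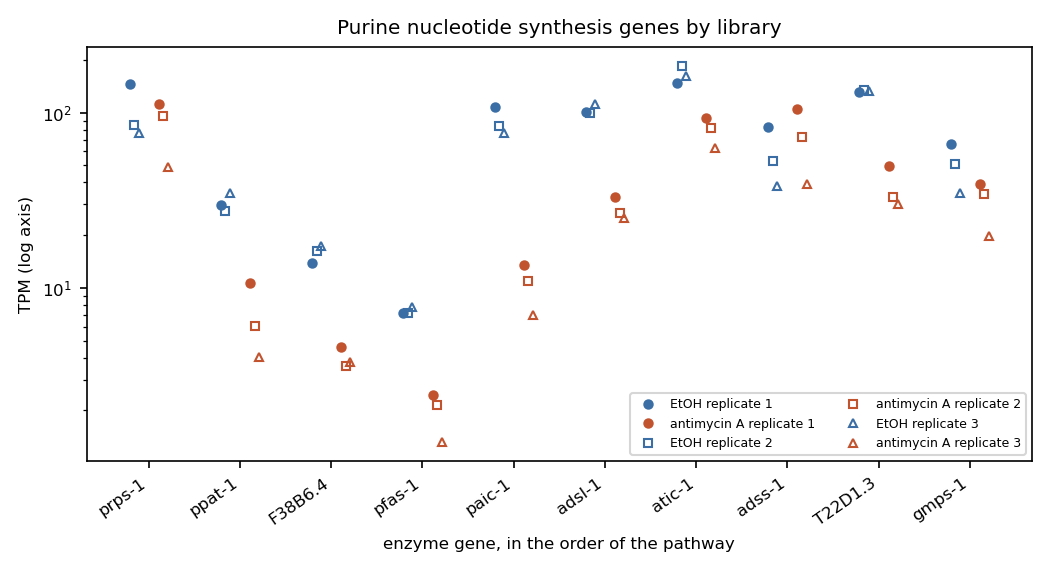
TPM (log axis) of 10 purine nucleotide synthesis genes in each EtOH (blue) and antimycin A (orange) library, in pathway order; symbols are replicates as in the plot of all 52 genes. Orange and blue are far apart for *ppat-1* to *adsl-1* and for *T22D1.3*, closer for *atic-1*, and overlap for *gmps-1*, *prps-1* and *adss-1*.

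Further enzymes were named by description. *Y105C5B.15* is a purple acid phosphatase, from a family of metal-dependent phosphate-releasing enzymes. It read 117, 134 and 136 TPM with EtOH and 38.2, 33.3 and 14.0 TPM with antimycin A. Of the other genes with that description at 10 TPM or more, *papl-1* was at a ratio of means of 0.3996 and *F21A3.11* at 2.36. *F09B12.3*, a putative phospholipase B-like protein, read 45.9, 37.0 and 36.0 TPM with EtOH and 8.19, 5.93 and 3.65 TPM with antimycin A. Of the other genes so described *Y54F10AM.8* was at a ratio of means of 0.570 and *Y37D8A.2*, at 9.69 TPM in EtOH, at 1.16. *C01G10.9* encodes methylthioribose-1-phosphate isomerase, an enzyme of methionine salvage. It read 20.8, 23.4 and 29.6 TPM with EtOH and 3.85, 4.40 and 4.84 TPM with antimycin A, both groups being highest in the third experiment.

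The 32 genes without symbol or description include *Y119D3B.21*, *F42A10.7*, *B0035.13*, *F46F2.3*, *F13B6.2* and *Y39A3B.3* above. *T15B7.1* (chrV:6842737-6846652) read 470.3, 447 and 442 TPM with EtOH and 101, 83.3 and 56.8 TPM with antimycin A. *F28H7.3* (chrV:10749607-10750788) read 333, 501 and 443 TPM with EtOH and 62.2, 59.9 and 41.6 TPM with antimycin A. *F35E12.6* (chrV:13734118-13736247) read 360, 316 and 291 TPM with EtOH and 56.2, 46.2 and 31.9 TPM with antimycin A. All of these lie on chromosome V, and in each the third treated library was the lowest.

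*C46G7.1* (chrIV:6018003-6019713) read 253, 256 and 262 TPM with EtOH and 81.4, 73.3 and 59.2 TPM with antimycin A. *ZK673.1* (chrII:10443327-10445233) read 198, 179.6 and 208 TPM with EtOH and 75.5, 70.5 and 52.1 TPM with antimycin A. *ZK512.7* (chrIII:9138052-9138701) read 113, 135 and 77.3 TPM with EtOH and 18.7, 11.1 and 6.33 TPM with antimycin A. The controls of *C46G7.1* were almost equal, whereas those of *ZK512.7* differed widely, the third being the lowest. The others with neither name nor description had means of 11.9 TPM (*R10E11.5*) to 149 TPM (*C52B11.5*) in EtOH, apart from *W08A12.3*, *C49A9.5* and *Y39A3B.3* at the level threshold. In order of level they were *C52B11.5*, *F01D5.5*, *Y49E10.16*, *F23D12.11*, *F01D5.1*, *Y75B12B.3*, *C50A2.3*, *ZK593.3*, *T28F3.8*, *T08B1.1*, *C12D12.1*, *F22H10.6*, *K09C4.5*, *C49A9.9*, *F01D5.3*, *F10D2.10*, *F42A8.1* and *R10E11.5*. Their ratios of means ran from 0.130 (*C49A9.9*) to 0.356 (*F01D5.1*).

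By chromosome, 7, 8, 12, 13 and 12 of the genes lay on II, III, IV, V and X, and none on I. Clone-named genes at 10 TPM or more numbered 294 on chromosome I and 267 on X. The X chromosome thus held 23.1% of the chosen genes and 13.9% of the genes they were chosen from. Among the protein-coding genes with other names that met both thresholds, 13 of 105 lay on chromosome I and 23 on X. *C37A2.7*, on chromosome I, missed the ratio threshold narrowly, with 2118, 2345 and 2245 TPM with EtOH and 863, 622 and 690.3 TPM with antimycin A. The median gene spanned 2055 bases, against 1658.5 bases for the other clone-named genes at that level.

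Some of the genes were neighbours. For 8 of the 52 (15.4%) the adjacent protein-coding gene on at least 1 side also met both thresholds, against 2.03% of the other clone-named genes at 10 TPM or more and 7.62% of the 105 genes with other names. The count depended on the rule: it was 3 of 41 (7.32%) at a mean of at least 20 TPM in EtOH, 4 of 32 (12.5%) at a ratio of at most 0.3, and 15 of 69 (21.7%) with both libraries of replicate 2 left out. In 6 of the 8 cases the neighbour was another of the 52, so these are pairs counted from both ends. The other cases were *ZK6.11*, next to *dod-19*, and *F10D2.10*, next to *fat-7*, a fatty acid desaturase gene.

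Within 10 kb of each other lay *Y34B4A.6* and *Y34B4A.9*, *F01D5.1*, *F01D5.3* and *F01D5.5*, and *C49A9.5* and *C49A9.9*. *F01D5.2*, between the F01D5 genes, was also lower but stood under 10 TPM, with 8.02, 8.53 and 8.99 TPM in the controls and 1.59, 0.363 and 3.45 TPM in the treated libraries. On chromosome IV, *C49A9.5* read 14.5, 9.26 and 7.74 TPM with EtOH and 1.23, 1.61 and 0.699 TPM with antimycin A, and *C49A9.9* read 24.2, 21.3 and 13.5 TPM and 3.39, 2.67 and 1.62 TPM. The flanking genes *C49A9.6* and *C49A9.4* had ratios of means of 0.403 and 0.368 and pair ratios of up to 0.519 and 0.561, and the next gene, *C49A9.3*, was at 1.41. The genes on either side of the Y34B4A pair were at 0.808 and 0.755. *F42A10.6*, beside *F42A10.7*, read 355, 294 and 339.8 TPM with EtOH and 120.3, 118.8 and 71.4 TPM with antimycin A. It missed the ratio threshold in the second pair alone.

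**Figure D5:**
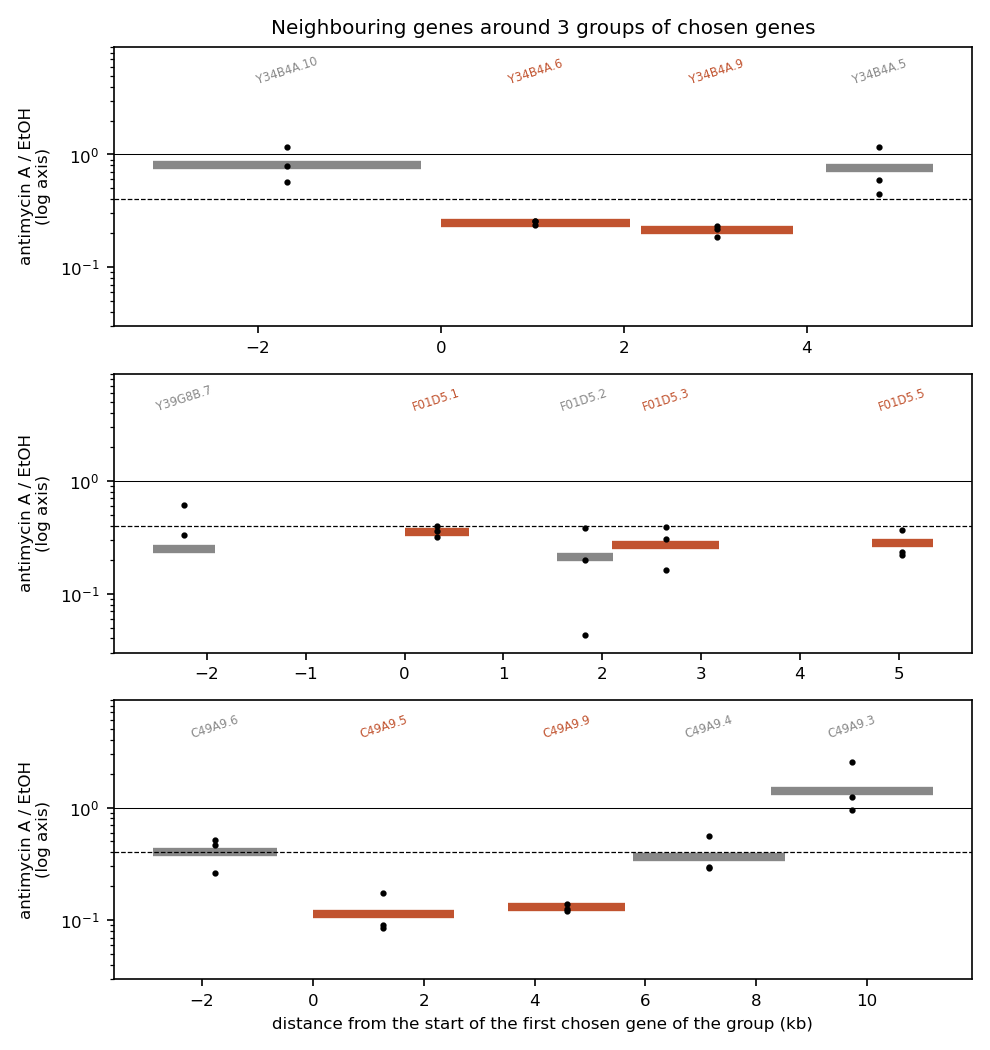
Ratio of antimycin A to EtOH (log axis) for genes around 3 groups of chosen genes, against distance in kb from the start of the first chosen gene; bars span each gene at its ratio of group means, dots are the 3 pair ratios (a ratio of 0 is not drawn), orange marks chosen genes, grey other genes, the dashed line 0.4 and the solid line 1. The drop covers *Y34B4A.6* and *Y34B4A.9* but not their neighbours, covers the F01D5 genes together, and grades into *C49A9.6* and *C49A9.4*.

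Genes that overlap can share reads, and the strand setting of the counting is not given in the sources used here. Of the 52 genes 33 overlapped no other annotated gene, and 12 overlapped a protein-coding gene, 11 of them one on the opposite strand. *W08A12.3* (10.67 TPM with EtOH and 2.55 TPM with antimycin A) contains *W08A12.2* on the opposite strand, which went from 18.01 TPM to 205 TPM, so the pair moved in opposite directions. *T15B7.1* overlaps *lgc-54* by 3854 bases, but that gene read only 4.86 TPM with EtOH and 1.49 TPM with antimycin A. *ZK512.7* lies within *eat-4*, which was at 0.326 TPM in EtOH. In *F22H10.6* (28.7 TPM with EtOH and 5.83 TPM with antimycin A) a tRNA gene on the same strand read 29.3 TPM and 6.79 TPM, and the levels of these genes cannot be told apart.

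Tissue markers and other gene lists give the setting of these values. Of 12 intestine markers 6 were called lower and 2 higher by limma with Benjamini-Hochberg adjustment over all tested genes, with a median log2 difference of -0.92 against 0.21 over all tested genes, of which 6.47% were lower and 14.2% higher. With the replicate block 9 were lower and 2 higher, against 13.0% and 29.6% of all tested genes. Their summed level was 6256 to 8128 TPM with EtOH and 1905 to 3830 TPM with antimycin A, and none was at 0. The intestinal acid phosphatase gene *pho-1* fell by 2.92 ± 0.44 (SE, n = 3 per group) on the log2 scale (limma adjusted p = 0.00108). The intestinal GATA factor gene *elt-7* rose by 1.19 ± 0.24 (limma adjusted p = 0.00608) and *ges-1*, the gut esterase, by 1.15 ± 0.27 (limma adjusted p = 0.0117). *elt-2*, the main gut GATA factor, differed by -0.62 ± 0.33 (limma adjusted p = 0.240, and 0.0213 with the replicate block). The part of intestinal RNA in the drop of the 52 genes was not tested.

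Fewer genes of the other marker lists were called. Without the block none of the 3 genes of the *tbh-1* neurons and octopamine, 5 of gonadal sheath, 6 of body wall muscle, 3 of pharynx or 6 of germline that were tested was called in either direction. Of 9 pan-neuronal genes 1 was called higher, and of 5 hypodermis and cuticle genes 1 was called lower and 2 higher. With the replicate block 3 of the 5 gonadal sheath genes and 3 of the 9 pan-neuronal genes were called higher. The sheath innexin gene *inx-8* differed by 0.55 ± 0.24 (limma adjusted p = 0.149, and 0.0206 with the block), higher in all 3 pairs. The calls for the *tbh-1* neuron, muscle, pharynx and germline lists stayed at 0 in that fit. Both coelomocyte markers stayed under the filter, with a summed level of at most 0.949 TPM. Summed gonadal sheath markers read 2803 to 4362 TPM with EtOH and 4898 to 6556 TPM with antimycin A, and summed pan-neuronal markers 274 to 484 TPM and 510.0 to 809 TPM, so markers of these tissues were present in both groups.

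Further gene lists, chosen with earlier results of these data known, cover fatty acid synthesis, proteases and immune effectors. None of the 9 descriptions of members names fatty acid synthesis, elongation or desaturation. Of 17 genes of fatty acid synthesis, elongation and desaturation 12 were called lower and 0 higher, with a median log2 difference of -1.40, beside 6.47% lower and 14.2% higher over all tested genes. Of 13 lysosomal and digestive proteases 6 were lower and 2 higher, with a median of -0.95. Of the lower ones *asp-1* and *cpr-6* are also on the intestine list, so these calls are counted in both lists. The cathepsin Z-like gene *cpz-1* fell by 2.63 ± 0.26 (limma adjusted p = 8.54e-05), whereas *cpl-1*, cathepsin L, differed by -0.20 ± 0.23 (limma adjusted p = 0.663). Of 16 innate immune effectors of the intestine 4 were lower and 4 higher, with a median of -0.43. With the replicate block, where 13.0% of all tested genes were lower and 29.6% higher, the counts lower and higher were 12 and 1 for the fatty acid list, 8 and 3 for the proteases and 8 and 5 for the immune effectors. None of the 52 genes is on any of these lists. Leaving out antimycin A replicate 2, EtOH replicate 2 or both took the number of genes called over all lists from 38 to 23, 23 and 12, and the replicate block took it to 55.

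The 52 genes resembled the 105 protein-coding genes with other names that met the same thresholds in the size of the drop, which the rule bounds for both. The named genes were more abundant, with a median of 215 TPM in EtOH against 71.6 TPM. They took 7.98%, 8.72% and 10.1% of TPM in the EtOH libraries and 2.35%, 1.82% and 1.99% in the antimycin A libraries. Clone-named genes at 10 TPM or more that were not chosen took 22.6% to 24.5% of TPM with EtOH and 27.9% to 31.1% with antimycin A.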

How the data were processed

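DESeq2 1.28.1, StringTie 2.1.4, HISAT2, Trimmomatic 0.36 and bcl2fastq 2.20 are named, with build WBcel235, in the submitters' processing notes; the strand setting is not given in the sources used here. The authors deposited TPM per gene for all 6 libraries, and the authors' table also holds a log2 ratio and a q-value, of which the q-value is used for 1 count. Values listed at 1e-04 TPM were set to 0. Columns of other samples numbered 0.

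The members, the gene lists and the rule for named genes were chosen with earlier results of these data known. Named are the 15 most abundant members, the 10 with the lowest ratios, those at 0, those nearest the thresholds, those within 10 kb of another, and up to 3 genes per list; genes named beside these were chosen after their values were seen. Means and SDs are over 3 libraries. Since the files hold TPM and no counts, the planned count test was not used. Instead log2(TPM + 1) was fitted with limma 3.58.1 in R 4.3.3, which understates the change of low genes, for genes that reached 1 TPM in 3 libraries, with group as the only term and Benjamini-Hochberg adjustment, and it was checked on simulated data. Deviations from group means correlated at 0.679, 0.307 and 0.586 within replicates 1, 2 and 3. The design text states independent experiments with 1 library per group, so the numbers pair the samples. The main fit leaves this pairing out, and the blocked fit, given as an alternative, uses it. Some genes not called in the main fit, such as *elt-2* and *inx-8*, were called with the block. Current symbols came from an annotation table of WBcel235. Sequences were not used here. Python 3.11.15 with numpy 2.4.6, pandas 2.3.3 and matplotlib 3.10.9 made the tables and plots.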

Additional observations from a re-analysis of the deposited data

How the results depend on the processing

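All 52 genes were called lower by limma under the 2 other pseudocounts, 2 scalings and 2 filters, and 50 to 52 were with any 1 library left out. Leaving out both libraries of replicate 2 left 37 calls, and replicate 3 left 49; *Y39A3B.3*, at 0 in antimycin A, fell under the filter in several of these fits. With the replicate block (the pairing by experiment) 52 members and 55 list genes were called, and the counts over all genes became 1442 lower and 3282 higher. Genes called lower numbered 1217 with median-of-ratios and 1398 with quantile scaling. Leaving out libraries gave 162 to 705 genes lower and 391 to 2059 higher, both fewest without the 2 libraries of replicate 2, and 12 to 41 genes called over the lists, which were 24 with no filter. The members' median log2 difference was -2.42 after median-of-ratios scaling and -1.62 with a pseudocount of 10, and -2.23 to -1.96 with libraries left out. The rule chose 32 genes at a ratio of at most 0.3, 106 at 0.5, 100 from group means and 97 after median-of-ratios scaling. It chose 57 to 80 with 1 pair left out. Alternatives were run gene by gene for 27 members, whose sign the rule fixes. The measure of adjacent genes was chosen after seeing the data. TPM hold no depth, so the precision of low members is unknown.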
